A study of Mus musculus with 2 samples.

Results

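The receptors for the colony-stimulating factors and the ligand Csf1 were read in microglia and accompanying cells sorted from the prefrontal cortex. The 5 members, Csf1r, Csf2ra, Csf2rb, Csf3r and Csf1, were taken by symbol from the 32589 features that both deposited matrices list, and all 5 were found. C57BL/6 mice were gavaged with vehicle or with corticosterone, the chief glucocorticoid of rodents, to model depression under excess stress hormone. Cells were sorted as CD45low CD11b+ and sequenced as single cells. Dose, duration, age, sex and the number of animals per library were not given in the sources used here. There was 1 library per group, so differences could not be checked against replicates, p-values are not given, and every interval covers counting error only, at the 95% level. Treatment, library and any batch of preparation cannot be told apart.

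Colony-stimulating factors are secreted proteins that keep myeloid cells alive and direct their differentiation. CSF1, with interleukin 34, signals through CSF1R, a receptor tyrosine kinase on which microglia depend for survival. CSF2 (GM-CSF) signals through a receptor made of a specific alpha chain, encoded by Csf2ra, and a beta chain, encoded by Csf2rb, which interleukin 3 and interleukin 5 receptors share. CSF3 (G-CSF) signals through CSF3R, the receptor that drives neutrophil production. In mice a duplicate of the beta chain, Csf2rb2, serves interleukin 3 alone.

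In GENCODE gene models on GRCm38, Csf1 lies on chromosome 3 from 107741048 to 107760469 on the minus strand, and Csf2ra on chromosome 19 from 61223957 to 61228429 on the minus strand. Csf2rb occupies 78325752 to 78353847 on the plus strand of chromosome 15, near Csf2rb2, which occupies 78282507 to 78305721 on the minus strand. Csf3r lies on chromosome 4 from 126024550 to 126044440 on the plus strand.

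Sequence before or around the RefSeq start is shown for 3 members whose levels carry the results below: Csf2ra, which differed most between the libraries, Csf3r, which marked the Cxcr2-led neutrophils, and Csf1, which varied most among microglia-like cells. All 3 were matched by symbol in the RefSeq promoter table (GRCm38.p6) and are written 5′ to 3′ on the gene's own strand. Capitals mark GAGGAA, the core bound by the myeloid factor PU.1, and GGGANNNNCC, a pattern of NF-kB type, each searched on both strands. For Csf2ra and Csf1 the 250 bases before the RefSeq start are shown (chr19:61228419-61228668 and chr3:107760470-107760719, both minus strand). For Csf3r only 30 bases around its GAGGAA are shown (chr4:126024561-126024590, plus strand).
Csf2ra: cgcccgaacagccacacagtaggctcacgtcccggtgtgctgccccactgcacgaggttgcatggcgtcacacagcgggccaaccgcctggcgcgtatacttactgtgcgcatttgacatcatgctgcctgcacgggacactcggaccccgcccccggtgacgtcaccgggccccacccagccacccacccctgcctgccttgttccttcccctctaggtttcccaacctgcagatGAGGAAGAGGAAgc
Csf3r: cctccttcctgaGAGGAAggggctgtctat
Csf1: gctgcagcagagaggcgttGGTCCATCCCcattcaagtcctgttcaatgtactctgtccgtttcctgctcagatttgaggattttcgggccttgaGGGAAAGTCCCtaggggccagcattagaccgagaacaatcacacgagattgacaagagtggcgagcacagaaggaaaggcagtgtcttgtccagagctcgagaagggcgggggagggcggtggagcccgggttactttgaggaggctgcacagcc

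Csf2ra held 2 copies of GAGGAA side by side, beginning 14 and 8 bases before its RefSeq start. The nearer copy lies inside the GENCODE gene model, which reaches 11 bases into the window, and the other copy crosses its edge. Csf3r held 1, beginning 86 bases before its RefSeq start and also inside the GENCODE model, which covers 109 bases of that window. Csf1 held none in this window. GGGANNNNCC was found 3 times for Csf1, beginning 231, 155 and 154 bases before the start, where the last 2 are overlapping matches on opposite strands. It was found 1 time in the 250 bases before Csf3r, outside the stretch shown, and not before Csf2ra. Across 32851 promoters of the same length, 23.3% held GAGGAA and 17.6% held GGGANNNNCC, so both patterns are common, and a match describes the letters only.

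A UMI is a tag that counts a captured transcript once. Filtering left 10500 vehicle cells (49325067 UMIs in total, median 3220.5 per cell) and 17883 corticosterone cells (85103539 UMIs, median 3961). The libraries shared 101 cell barcodes among the kept cells. Cells were clustered with the 5 members and Csf2rb2 held out, and clusters were named from markers. Microglia-like cells made up 75.2% of vehicle cells (7894) and 85.4% of corticosterone cells (15276), but the libraries filled different clusters of that class. A cluster led by Gm13889 held 93.5% of the vehicle microglia-like cells, while clusters led by Rcan1 and by E330020D12Rik held 65.5% and 28.6% of those from corticosterone. The other classes read here were border macrophage-like cells (1075 and 799), Cxcr2-led neutrophil-like cells (199 and 274), Camp-led neutrophil-like cells (258 and 124), which carry granule genes of immature neutrophils, and monocyte-like cells (30 and 59). A class II-led cluster (192 and 88), and a low-UMI cluster (636 and 1157, median 1110 and 1262 UMIs per cell) stayed unnamed.

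Microglial transcripts were present in every class, which touches each class level below. All 8 microglia markers had UMIs in all classes. In erythroid cell-like barcodes (160 and 79), led by haemoglobin genes, 4 of them (Sall1, P2ry12, Tmem119 and Siglech) stood at 0.730 to 0.808 of their microglia-like CPM for the vehicle library and 0.766 to 0.894 for the corticosterone library. In Camp-led neutrophil-like cells the same range was 0.348 to 0.430 in vehicle and 0.119 to 0.143 in corticosterone. Free RNA and droplets with more than 1 cell cannot be told apart here, and their part in the levels was not tested. Shares of cells with a UMI were taken after each cell was thinned to 1000 UMIs, which left out 608 and 98 microglia-like cells, 18 and 4 Cxcr2-led cells and 27 and 2 erythroid cell-like barcodes. The median UMIs per cell before thinning were 3177 and 4001, 2737 and 2425.5, and 2559 and 3808 in the same order. The erythroid cell-like barcodes serve as a class that should not make the members. Their microglia markers show that it is not free of microglial transcripts. A class level is therefore given both in CPM, UMIs of the gene per 1e6 UMIs summed over the class, and as a multiple of the microglia-like CPM of its library beside the range of those 4 markers.

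**Figure D1:**
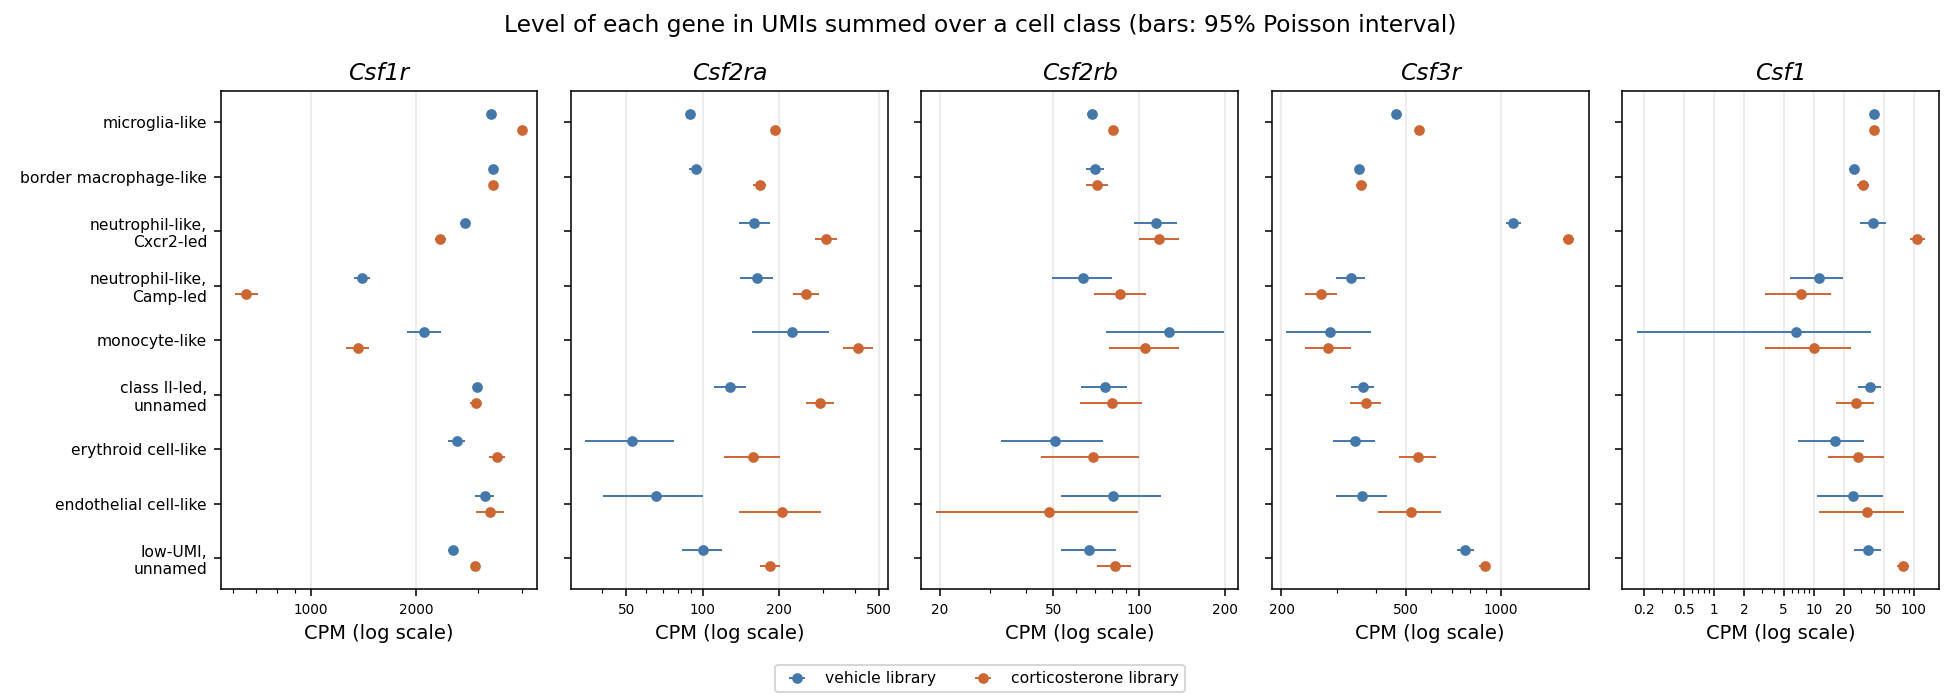
Each panel plots the CPM of 1 member (log axis) in UMIs summed over a cell class, with 1 point per library and bars for the 95% Poisson interval. Csf2ra sat higher in the corticosterone library in every class, Csf3r was highest in the Cxcr2-led neutrophil-like cells, and Csf1r was lowest in the Camp-led ones.

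Summed over all microglia-like cells, the ligand Csf1 stood at the same level in both libraries, though bands of UMIs per cell differed, as given below. Its vehicle level was 39.8 CPM (37.6 to 42.0) and its corticosterone level 39.9 CPM (38.4 to 41.4), with a log2 ratio of 0.00 (-0.09 to 0.10). In border macrophage-like cells it measured 25.5 CPM in vehicle and 31.1 CPM in corticosterone, below the microglia-like level in both libraries. Camp-led neutrophil-like cells held 12 and 8 Csf1 UMIs and monocyte-like cells 1 and 5, too few to compare.

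Csf1 differed between the libraries in the Cxcr2-led neutrophil-like cells. It measured 39.5 CPM (29.1 to 52.4) in vehicle, 0.992 times the microglia-like level. In corticosterone it measured 109 CPM (91.7 to 129), 2.73 times that level. The intervals did not overlap, and the log2 ratio was 1.47 (0.98 to 1.97). The low-UMI cluster went the same way, from 34.9 to 78.6 CPM, a log2 ratio of 1.17 (0.69 to 1.68). Of thinned Cxcr2-led cells, 5.52% had a Csf1 UMI in vehicle and 13% in corticosterone (14.1% and 26.3% unthinned), against 0.752% and 3.90% of thinned erythroid cell-like barcodes. The 4 microglia markers in Cxcr2-led cells stood at 0.679 to 0.775 of the microglia-like level in vehicle and 0.505 to 0.543 in corticosterone. The part of class make-up in the Csf1 ratio was not tested.

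The equal means hid a wide spread of Csf1 among microglia-like cells. Cells were ordered within each library by their thinned UMIs of a cytokine list (Tnf, Il1a, Il1b, 6 chemokines and Nfkbia) and cut into 4 groups of equal size. From the lowest to the highest group, Csf1 went through 20.6, 27.3, 33.7 and 74.8 CPM in vehicle. In corticosterone it went through 28.8, 31.0, 40.0 and 58.1 CPM. The highest group thus held 3.63 times (2.99 to 4.44) the Csf1 of the lowest in vehicle and 2.02 times (1.80 to 2.27) in corticosterone. Csf1r moved the other way, and by less: 0.884 times in vehicle and 0.927 times in corticosterone. Median UMIs per cell in the lowest and highest groups were 2789.5 and 3632 in vehicle, and 3374 and 4129 in corticosterone, and the part of depth was not tested.

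Ordered instead by immediate early genes such as Fos, Jun and Egr1, which rise with cell handling as well as with stimulation, the highest group held 0.641 times the Csf1 of the lowest in vehicle and 0.730 times in corticosterone. Ordered by interferon genes it held 1.11 times and 1.34 times. Many cells had 0 thinned UMIs of the interferon list, in vehicle some of the highest group as well, so the vehicle ratio compares in part cells of equal score. Csf2ra, Csf2rb and Csf3r stayed between 0.887 and 1.04 times over the 3 orderings in both libraries.

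**Figure D2:**
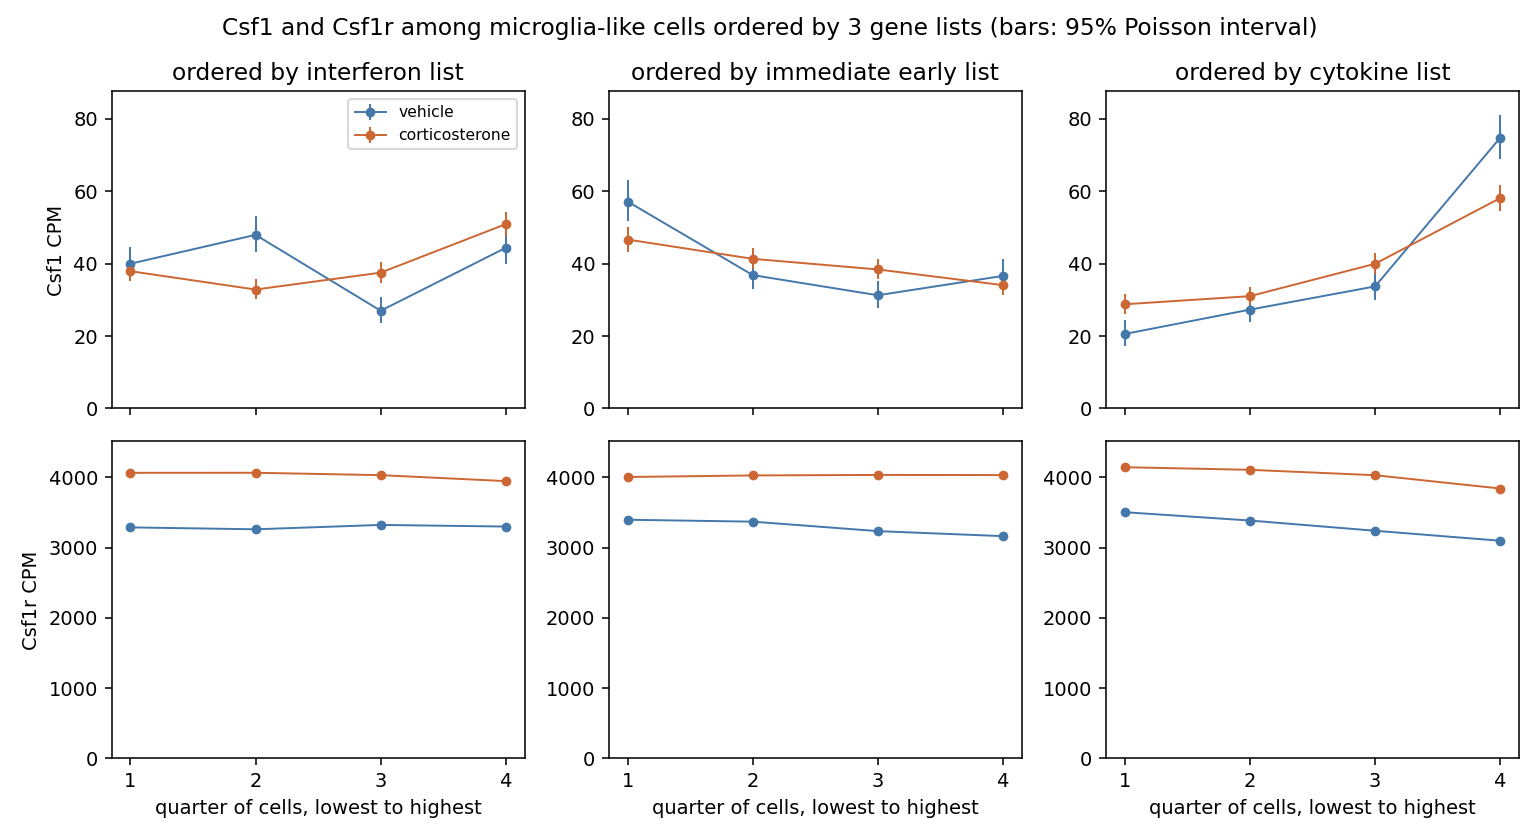
CPM of Csf1 (upper row) and Csf1r (lower row) is plotted against 4 equal groups of microglia-like cells ordered by an interferon, an immediate early and a cytokine list, with 1 line per library and bars for the 95% Poisson interval. Csf1 climbs with the cytokine list, to 74.8 CPM in vehicle and 58.1 CPM in corticosterone, while Csf1r stays nearly flat.

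A small set of microglia-like cells led by Lpl, Spp1, Fam20c and Nes, found at a finer clustering (30 vehicle and 54 corticosterone cells), was the richest in Csf1 of the microglia-like clusters. Its Csf1 level was 734 CPM for vehicle and 367 CPM for corticosterone, or 18.4 and 9.21 times the microglia-like level. These cells were 0.380% and 0.353% of the microglia-like cells and carried 8.97% and 4.77% of their Csf1 UMIs. They had less of the receptor than microglia-like cells as a whole, with Csf1r at 2357 and 2539 CPM, or 0.718 and 0.631 times. The interferon-rich cluster led by Ifit2 (47 and 658 cells) also had more Csf1, 136 CPM in vehicle and 108 CPM in corticosterone. Without that cluster Csf1 came to 39.2 CPM for vehicle and 36.1 CPM for corticosterone, a log2 ratio of -0.12 (-0.22 to -0.02). Without the Lpl- and Spp1-led set instead, it came to 36.4 CPM for vehicle and 38.2 CPM for corticosterone, a log2 ratio of 0.07 (-0.03 to 0.17).

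The other ligands of these receptors were almost undetected. Il34, the second ligand of CSF1R, which neurons make, had 1 and 2 UMIs in microglia-like cells and 1 and 5 in border macrophage-like cells. Csf2 and Il3 had 0 UMIs in the microglia-like cells of both libraries, and Csf3 and Il5 had 0 in vehicle and 1 in corticosterone. A count of 0 there allows up to 0.0939 CPM in vehicle and 0.0420 CPM in corticosterone.

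Csf1r, on chromosome 18 from 61100598 to 61132149 (GRCm38, plus strand), was abundant in microglia-like cells and somewhat higher in the corticosterone library. The vehicle value was 3284 CPM (3264 to 3304) and the corticosterone value 4023 CPM (4008 to 4037), which makes a log2 ratio of 0.29 (0.28 to 0.30). That ratio was larger than those of 83.4% of the 6601 genes with a mean of at least 20 CPM, and stayed under the 1.5-fold line used here to call a gene. After thinning to 1000 UMIs, the median microglia-like cell held 3 Csf1r UMIs in vehicle and 4 in corticosterone, and cells with none were 6.44% and 2.52%. Of thinned erythroid cell-like barcodes 85.7% and 96.1% had a Csf1r UMI, beside 93.6% and 97.5% of microglia-like cells (98.0% and 99.8% unthinned). Border macrophage-like cells held 3315 CPM (3281 to 3349) and 3321 CPM (3278 to 3365), with a log2 ratio of 0.00 (-0.02 to 0.03). These were 1.01 and 0.826 times the microglia-like level, above the 4-marker ranges of 0.766 to 0.870 and 0.631 to 0.691.

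In the neutrophil-like cells Csf1r stood below the microglia-like level, as did the 4 microglia markers. Cxcr2-led cells held 2760 CPM in vehicle and 2344 CPM in corticosterone, or 0.840 and 0.583 times the microglia-like level, against 4-marker ranges of 0.679 to 0.775 and 0.505 to 0.543. Camp-led cells held 1402 CPM and 656 CPM, or 0.427 and 0.163 times, against 0.348 to 0.430 and 0.119 to 0.143. The log2 ratio between libraries was -0.24 (-0.31 to -0.16) in Cxcr2-led cells and -1.10 (-1.23 to -0.97) in Camp-led cells. The 4 microglia markers were likewise at smaller multiples in the corticosterone library in both classes, and their part in the Csf1r ratio was not tested. In the finer cluster led by Ltf, Ngp, Lcn2 and Camp, Csf1r went from 1210 to 671 CPM. A finer neutrophil-like cluster led by Fcnb, Chil3, Itgb2l and Ltf held 2774 CPM in 142 vehicle cells. The part of such make-up in the Camp-led ratio was not tested. Over all neutrophil-like cells Csf1r was 0.647 and 0.392 times the microglia-like level, but 0.937 and 0.703 times when cells were classed one by one from their marker UMIs. That rule took 1410 vehicle and 783 corticosterone cells as neutrophils, far more than the neutrophil-like clusters held. It set no limit on their microglia markers. Monocyte-like cells held 2104 CPM and 1363 CPM, a log2 ratio of -0.63 (-0.82 to -0.43), with the 4 markers at 0.465 to 0.605 and 0.215 to 0.245.

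**Figure D3:**
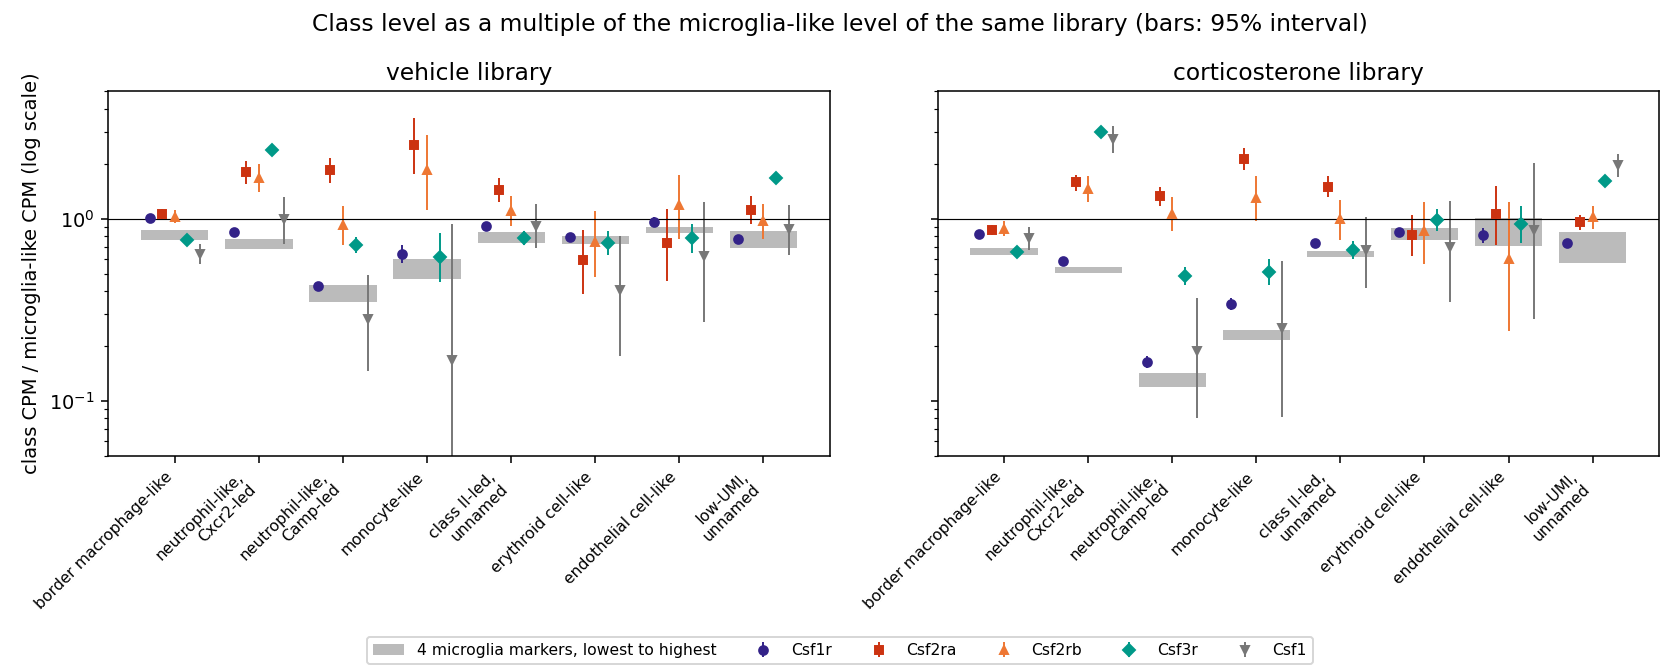
Each point is the CPM of a member in a class divided by its microglia-like CPM in the same library (log axis), with bars for the 95% interval, and each grey block spans the same multiple of Sall1, P2ry12, Tmem119 and Siglech. Csf1r lies near or just above the grey block in most classes. Points above both the block and 1 include Csf2ra in neutrophil-like, monocyte-like and class II-led cells, and Csf3r in Cxcr2-led and low-UMI cells.

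Csf2ra, the GM-CSF-specific chain, was the member that differed most between the libraries in microglia-like cells. The vehicle library gave 89.1 CPM (85.9 to 92.4) and the corticosterone library 193.9 CPM (190.7 to 197.2). The log2 ratio was 1.12 (1.06 to 1.18), or 2.18 times. That was larger than the ratio of 98.6% of the genes tested. It was the 1 member of 5 past 1.5-fold higher in microglia-like cells, where 5.24% of genes were past it higher and 4.77% lower. Within the Gm13889-led cluster it measured 88.7 CPM in 7377 vehicle cells and 186 CPM (158 to 216) in 243 corticosterone cells. Within the Rcan1-led cluster the values were 112 CPM (88.1 to 141) in 184 vehicle cells and 192 CPM in 10007 corticosterone cells, and within the Ifit2-led cluster 62.8 CPM (32.4 to 110) from 12 UMIs and 192 CPM. The part of cluster make-up in the difference was not tested. Of thinned microglia-like cells, 8.07% in vehicle and 17.0% in corticosterone had a Csf2ra UMI (25.5% and 50.4% unthinned). The thinned erythroid cell-like barcodes had 1.5% (0.183% to 5.33%) and 16.9% (9.31% to 27.1%). The microglia-like share thus lay above the erythroid interval in vehicle and inside it in corticosterone. In corticosterone those barcodes held the 4 microglia markers at 0.766 to 0.894 of the microglia-like level. Their share is therefore no background free of microglial transcripts, and the comparison cannot tell background from expression.

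Csf2ra was past 1.5-fold higher in all 8 classes compared, erythroid cell-like barcodes included. Border macrophage-like cells went from 94.0 to 168 CPM, a log2 ratio of 0.84 (0.72 to 0.96), in a class where 6.21% of genes were past 1.5-fold higher and 4.97% lower, and it was the 1 member of 5 past it in either direction. Cxcr2-led neutrophil-like cells went from 160 to 307 CPM, a log2 ratio of 0.94 (0.68 to 1.19). Their 4-marker range was 0.679 to 0.775 in vehicle and 0.505 to 0.543 in corticosterone, and the part of class make-up was not tested. Camp-led cells went from 164 to 257 CPM, 0.65 (0.37 to 0.93) on the log2 scale, with a median of 2737 and 7459.5 UMIs per cell. At the finer clustering, the cluster led by Ltf, Ngp, Lcn2 and Camp (122 and 107 cells) went from 195 to 277 CPM, under the 1.5-fold line. A neutrophil-like cluster led by Fcnb, Chil3, Itgb2l and Ltf held 107 CPM in 142 vehicle cells (median 937 UMIs per cell). Erythroid cell-like barcodes went from 52.7 to 158 CPM, and the part of microglial RNA in that value was not tested. As a multiple of the microglia-like level, Csf2ra stood highest in monocyte-like cells, at 2.54 (1.76 to 3.56) in vehicle and 2.13 (1.85 to 2.44) in corticosterone. The multiples were 1.80 and 1.58 in Cxcr2-led cells, and 1.84 and 1.33 in Camp-led cells, where the 4 microglia markers were all below 1. Over all neutrophil-like cells the multiples were 1.82 and 1.47, and 1.28 and 1.29 with cells classed one by one.

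In Cxcr2-led cells 2 of the 5 members, Csf2ra and Csf1, were past 1.5-fold higher and 0 lower, where 10.7% of genes were higher and 14.4% lower. In Camp-led cells 4 members reached 20 CPM: Csf2ra was past 1.5-fold higher, where 8.72% of genes were, and Csf1r was past 1.5-fold lower, where 27.3% of genes were. In monocyte-like cells 4 members reached 20 CPM as well, with Csf2ra past 1.5-fold higher, where 17.5% of genes were, and Csf1r lower, where 28.1% were. Erythroid cell-like barcodes had 3 of 5 members past 1.5-fold higher, Csf2ra, Csf3r and Csf1, and 0 lower, beside 19.1% and 13.3% of genes. The Csf1 ratio there rests on 8 and 11 UMIs and its log2 interval ran from -0.66 to 2.31. The low-UMI cluster had 2 of 5 higher, Csf2ra and Csf1, and 0 lower, beside 10.8% and 7.5%. The class II-led cluster had 1 of 5 higher, Csf2ra, and 0 lower, beside 10.8% and 11.8%.

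The shared beta chain Csf2rb moved little. Microglia-like cells of the vehicle library held 68.4 CPM (65.5 to 71.3) and those of the corticosterone library 80.5 CPM (78.5 to 82.6). The log2 ratio was 0.24 (0.16 to 0.31). It measured 70.1 and 71.0 CPM in border macrophage-like cells, and 114 and 118 CPM in Cxcr2-led cells, or 1.67 and 1.46 times the microglia-like level. The duplicate Csf2rb2 went the other way in microglia-like cells, with 33.7 CPM (31.7 to 35.7) in the vehicle library against 26.1 CPM (25.0 to 27.4) after corticosterone. Its log2 ratio was -0.36 (-0.47 to -0.26). The transcripts of the pair share 18.4% of the 50-base windows of Csf2rb and none in its last 500 bases, and how the authors counted reads that fit both is not given in the sources used here, so both values are uncertain to that extent.

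Cells with UMIs of both GM-CSF receptor chains were rare. After thinning they were 0.618% (0.451% to 0.826%) of microglia-like cells in vehicle and 1.28% (1.11% to 1.48%) in corticosterone. The product of the separate shares was 0.510% and 1.26%, and both products lie inside the intervals of the measured shares. Cxcr2-led cells reached 2.21% and 4.44%, from 4 and 12 cells. Il3ra, the alpha chain for interleukin 3, was under the 20 CPM minimum, with 2.35 CPM in vehicle and 5.66 CPM in corticosterone microglia-like cells, and Il5ra had 0 UMIs in both.

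Csf3r, the G-CSF receptor, separated the Cxcr2-led neutrophil-like cells from every other named class. There the vehicle value was 1099 CPM (1041 to 1160) and the corticosterone value 1646 CPM (1577 to 1718), or 2.37 and 2.99 times the microglia-like level. The log2 ratio between libraries was 0.58 (0.48 to 0.68), just under the 1.5-fold line. Summed CPM of the 9 neutrophil markers also differed in this class, 43051 in vehicle and 67521 in corticosterone. The 4 microglia markers stood at 0.679 to 0.775 of the microglia-like level in vehicle and 0.505 to 0.543 in corticosterone. The part of class make-up in the Csf3r ratio of these Cxcr2-led cells was not tested. Once thinned, 73.5% of these cells had a Csf3r UMI in vehicle and 80.7% in corticosterone (96.0% and 97.8% unthinned), against 30.1% and 40.3% of erythroid cell-like barcodes. The Camp-led cells did not share this: 333 CPM in vehicle and 268 CPM in corticosterone, or 0.718 and 0.487 times the microglia-like level. Those multiples were above the 4-marker ranges for the class, 0.348 to 0.430 in vehicle and 0.119 to 0.143 in corticosterone. The part of microglial RNA in the Camp-led Csf3r values was not tested.

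Microglia-like cells themselves carried Csf3r, with 463 CPM (456 to 471) for the vehicle library and 550 CPM (545 to 556) for the corticosterone library. The log2 ratio was 0.25 (0.22 to 0.27). Of those cells 36.7% and 41.5% had a UMI after thinning (71.9% and 85.1% unthinned). That was close to the 30.1% and 40.3% of erythroid cell-like barcodes, which carry microglial transcripts too. Summed CPM of the 9 neutrophil markers in microglia-like cells was 444 in vehicle and 140 in corticosterone, mostly from S100a8 (188 and 52.7) and S100a9 (110 and 35.0). Cxcr2 in the same cells was 0.877 and 1.05 CPM, and the part of neutrophil RNA in the Csf3r values was not tested. Border macrophage-like cells had less Csf3r, 353 CPM and 359 CPM, or 0.762 and 0.653 times the microglia-like level, just below the 4-marker range of 0.766 to 0.870 in vehicle and inside that of 0.631 to 0.691 in corticosterone. The low-UMI cluster held 771 and 890 CPM, or 1.66 and 1.62 times.

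Ratios in microglia-like cells were recomputed within bands of UMIs per cell, since the libraries differ in depth. From 1000 UMIs upward in 4 bands, Csf2ra stayed between 1.07 and 1.38 on the log2 scale, Csf1r between 0.17 and 0.37, Csf3r between 0.21 and 0.32 and Csf2rb between 0.19 and 0.52. Csf1 changed direction: -0.41 (-0.58 to -0.23) in cells of 2000 to under 4000 UMIs and 0.46 (0.27 to 0.66) in cells of 8000 or more. The near-zero ratio of Csf1 is thus an average over bands that differ.

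**Figure D4:**
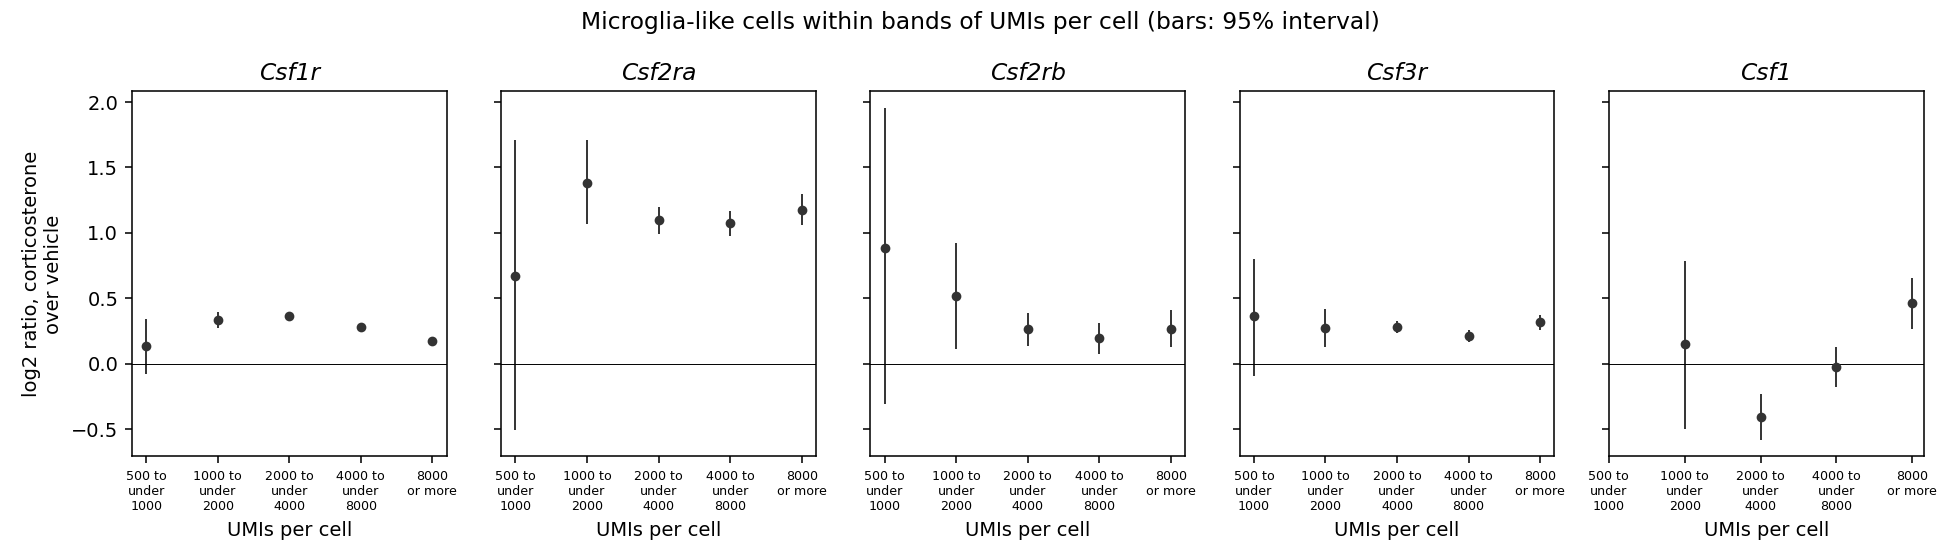
The log2 ratio of corticosterone over vehicle in microglia-like cells is plotted against 5 bands of UMIs per cell for each member, with bars for the 95% interval. Csf2ra, Csf1r, Csf2rb and Csf3r lie above 0 in every band from 1000 UMIs, Csf1 lies on both sides, and its lowest band has no point because the corticosterone cells held 0 UMIs.

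Genes around the receptors were read from 4 lists. Their counts past 1.5-fold stand beside 5.24% higher and 4.77% lower among all genes tested in microglia-like cells. Of 11 regulators of Csf1r transcription, all reached 20 CPM, 0 were past 1.5-fold higher and 1 lower, and the median log2 ratio was 0.00, the same as over all genes tested (0.00). Ets2 was highest at 0.52, followed by Irf8 at 0.30 and Spi1, which encodes PU.1, at 0.24. Maf was past the line at -0.76, and Fli1 stood at -0.26. Of 28 genes of CSF1 receptor signalling and turnover, 23 reached 20 CPM, of which 2 were past 1.5-fold higher and 1 lower, with a median of 0.08. The kinase Src, at 0.61, was among those past the line, and the phosphatase Ptpn6 stood at 0.29. The adaptor Gab1 was lowest at -1.31, with the PI3 kinase subunit Pik3r1 at -0.33 and Cbl, a ubiquitin ligase that ends receptor signalling, at -0.28.

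Of 16 genes of JAK-STAT signalling, 13 reached 20 CPM, of which 2 were past 1.5-fold higher and 0 lower, with a median of 0.17. Pim1, a kinase induced by STAT factors, was highest at 1.62, and Tyk2 stood at 0.45. Stat5b, a main target of GM-CSF signalling, was lowest at -0.33, with Stat3 at -0.03 and Jak2, the kinase bound to the beta chain, at -0.01. Of 20 other cytokine and growth factor receptors, 17 reached 20 CPM, with 1 higher, 1 lower and a median of 0.10. For these lists too, the shares over all genes tested were 5.24% higher and 4.77% lower. Il4ra stood at 0.65, Ifngr2 and Il10ra at 0.46 each, Il6st at -0.60, Igf1r at -0.37 and Insr at -0.35.

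**Figure D5:**
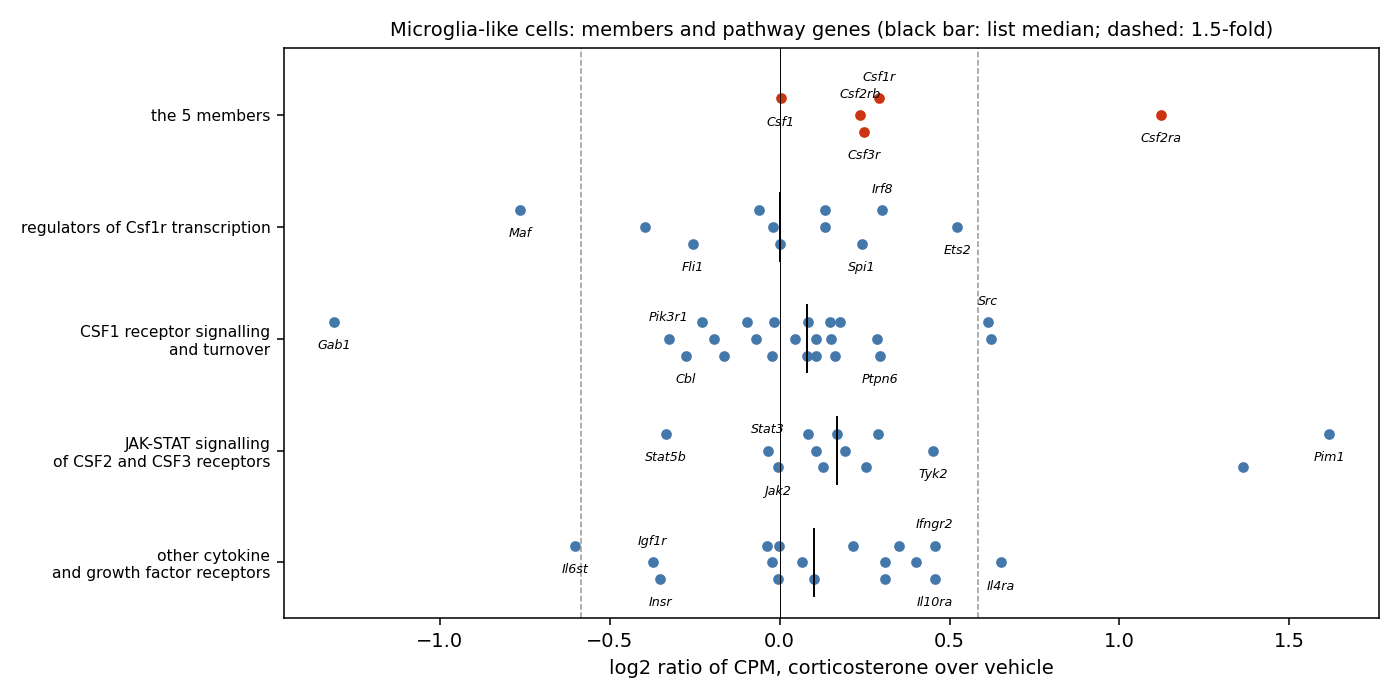
Each point is the log2 ratio of corticosterone over vehicle in microglia-like cells for a member or a gene of 4 lists with at least 20 CPM, black bars are list medians and dashed lines mark 1.5-fold. Csf2ra at 1.12 lies right of the dashed line, the other 4 members lie inside it, and list medians lie between 0.00 and 0.17.

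Over the 15 sums of a class and library with at least 50 cells, the genes most like each member were found among 8871 genes by Pearson's r of log2(CPM + 1). These sums share 2 libraries, their depth and microglial RNA, so r is a description. Csf1r was most like Lgmn (0.991), Syngr1, Gpr146, Ctsl and Tmem119. Csf2ra was most like Oas1a and Zbp1 (0.948 each), Irf7, Usp18 and Ube2d3. Csf2rb was most like Oasl1 (0.921), Rnf149, Ifit3b, Grk2 and Trim12c. Csf3r was most like Depdc5 (0.879), Trpm2, March7, Ngly1 and Pde4b, and Csf1 was most like Plk3 (0.927), Usp7, Jak1, Kdm5c and Fam114a1. Among single microglia-like cells, Csf2ra in the highest interferon group was 0.996 times that of the lowest in corticosterone, where every cell of the highest group had at least 1 thinned interferon UMI.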

How the data were processed

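The deposited matrices hold raw UMI counts per gene and barcode, made by the authors and not normalised. The deposited file names use other words for the groups than the labels, wild type and depression where the labels say vehicle and corticosterone, so each file was tied to its group by its sample record, and every direction rests on that. Libraries were built with a GEXSCOPE kit, per the labels' protocols, and GRCm38 and bcl2fastq 2.19 are named in the submitters' processing notes. The aligner, counting program and annotation are not given in the sources used here.

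Cells with at least 500 UMIs, 300 genes and at most 20% mitochondrial UMIs were kept, removing 55 and 230 barcodes. Scrublet marked 0 cells in each library, so it was taken not to have worked and no doublets were removed. Its scores were still used in an alternative that left out the highest 6% of scores in each library. Counts scaled to 10000 per cell, 2000 variable genes, 30 components and 15 neighbours entered Leiden clustering at resolution 0.5 (scanpy 1.11.5, Python 3.11.15). A cluster was named where at least 3 markers of a class stood at 2 times their level in other cells of the same library. Failing that, it was microglia-like where microglia markers kept at least 0.5 times their level over all cells. It stayed unnamed where another class had more markers among its 10 leading genes, as in the class II-led cluster. It also stayed unnamed under 33.3% of the library's median UMIs per cell with no own marker among those 10. That limit left the low-UMI cluster unnamed, though its microglia markers stood at 0.737 times. UMIs were summed per class and library as CPM. Intervals are exact Poisson, conditional binomial and Clopper-Pearson, and the ratio interval was tested on simulated data. The floor for a count of 0 is 3 counts.

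Named genes were the members, their other ligands and chains, the 3 highest and 3 lowest of each list (of which 3 genes are not reported here), and the 5 most like each member. Members and lists were chosen with earlier results of these data known. edgeR 4.0.16 and DESeq2 1.42.0 supplied scaling factors only. Alternatives covered scaling, cells taken, filters, clustering, thinning and weights.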

Additional observations from a re-analysis of the deposited data

Results flagged for a closer look

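Csf1r had a log2 ratio of corticosterone over vehicle of 0.29 in microglia-like cells and ratios below 0, with intervals that leave out 0, in 3 other classes: -0.24 in Cxcr2-led neutrophil-like cells, -1.10 in Camp-led neutrophil-like cells and -0.63 in monocyte-like cells. The class II-led cluster stood at -0.01 (-0.09 to 0.06). Csf3r had 0.25 in microglia-like cells and -0.31 in Camp-led cells. The 4 microglia markers in Camp-led cells stood at 0.348 to 0.430 of the microglia-like level in vehicle and 0.119 to 0.143 in corticosterone. The part of microglial RNA in these ratios was not tested. With 1 library per group, none of these differences between classes was tested.

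Barcodes removed by the filter also carried the receptors. In the 230 removed from the corticosterone library Csf1r measured 1355 CPM and Csf3r 710 CPM, against 615 and 241 CPM in the 55 removed from the vehicle library.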

How the results depend on the processing

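No paired analysis was possible because each group had 1 library. The microglia-like log2 ratio was recomputed under 11 alternatives, of which all cells and every barcode were not restricted to microglia-like cells. It ran from 0.26 to 0.36 for Csf1r, 1.04 to 1.20 for Csf2ra, 0.20 to 0.27 for Csf2rb, 0.21 to 0.29 for Csf3r and -0.12 to 0.21 for Csf1, which was above 0 in 6 of 11. Only Csf2ra was past 1.5-fold in any. Values beyond the counting interval were as follows. All cells gave Csf1r 0.26, Csf2ra 1.04, Csf3r 0.29 and Csf1 0.20, and every barcode gave 0.26, 1.04, 0.29 and 0.21. A marker rule per cell gave Csf1r 0.33 and Csf2ra 1.20. Leiden 1, which leaves 1 vehicle microglial cluster unnamed, gave Csf1r 0.36 and Csf3r 0.21. The mean over cells gave Csf1r 0.36, Csf3r 0.21 and Csf1 -0.11, and leaving out the Ifit2-led cluster, chosen after seeing the data, gave Csf1 -0.12. The bands of UMIs per cell and the sums without single clusters were also added then.

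Csf1r in vehicle border macrophage-like cells was 1.01 times the microglia-like level, 1.03 by the rule per cell and 1.06 at Leiden 1. Csf3r over all neutrophil-like cells was 1.60 times in vehicle and 1.85 in corticosterone, and 1.12 and 1.33 by the rule per cell. That rule took a larger set as neutrophils, 1410 vehicle and 783 corticosterone cells. With it Csf1r moved from 0.647 to 0.937 times in vehicle and from 0.392 to 0.703 in corticosterone. Csf2ra moved from 1.82 to 1.28 and from 1.47 to 1.29, and in vehicle Csf2rb from 1.32 to 1.13 and Csf1 from 0.659 to 0.922. The difference in shares of microglia-like cells, in percentage points, was for Csf1r 3.92 at 1000 UMIs, 8.13 at 500, 0.304 at 2000 and 1.80 without thinning. For Csf2ra it was 8.92, 4.67, 14.5 and 24.9, and for Csf3r 4.85, 3.32, 6.76 and 13.2. Without thinning it was 7.11 for Csf2rb and 2.90 for Csf1, against 1.11 and 0.0733. Genes past 1.5-fold numbered 346 higher and 315 lower, 570 and 638 with a minimum of 5 CPM, and 1840 and 3958 with none. The cause of these moves was not tested. TMM and DESeq2 scaling moved all ratios by -0.003 and -0.001.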
